A study of Mus musculus with 27 samples.

Results

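The collagen genes of the mouse lung were followed across 9 inbred strains. They were taken as every row of the deposited expression table whose mapped symbol is Col, a number, the letter a and a number, such as Col1a1. There were 44 of them, each with 1 probe set, among 20239 rows with a gene name and 21225 rows in all. Col21a1 was not analysed here. RNA of the right lung came from 3 female mice of each strain at 11 weeks of age, described as normal lung, on 27 Affymetrix Mouse Gene 1.0 ST arrays, whose short probes lie along the whole transcript. No treatment or engineered allele is given for any strain. The labels give each strain, not each mouse, a class for spontaneous pulmonary adenoma, a benign lung tumour. Severity and frequency are both increased in A/J, DBA/2J and C57BL/6J, and both decreased in MRL/MpJ and KK/HlJ. The mixed strains, with severity increased and frequency decreased, are C57L/J, C3H/HeJ, 129S1/SvlmJ and BALB/cJ. Every strain is therefore 1 inbred genotype sampled in 3 mice, and a class of 2, 3, 6 or 7 strains compares genotypes that differ in much else.

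Collagens are secreted proteins in which 3 alpha chains wind into a triple helix. Types I, III and V build the fibrils that give the lung its tensile strength, type IV forms the sheet-like network of basement membranes under the alveolar epithelium and around capillaries, and type VI makes beaded filaments around cells. The remaining families decorate fibrils, anchor epithelia, span the plasma membrane or belong mainly to cartilage. Fibroblasts and smooth muscle cells make most of the fibrillar chains in lung, while epithelial, endothelial and mesenchymal cells contribute to the basement membrane chains.

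The deposited values are log2 signals, and each difference below is a difference of log2 signal, where 1 stands for a doubling. Levels of different genes are not set against each other, because each probe set has its own response. Array medians lay between 6.24 and 6.37, and arrays of 1 strain correlated at 0.984 to 0.997 over all genes, arrays of different strains at 0.976 to 0.993. Lung markers were bright: Hopx and Aqp5 of alveolar type I cells had strain means of 9.08 to 9.77 and 8.77 to 9.48. Y-linked genes, which female mice lack, had strain means up to 5.25 for Sry and up to 3.56 for the others, which gives the level of a probe set without its transcript. There were 3 collagen genes with every strain mean at or below 5.25, and 0 with all of them below 3.56. The mean over all arrays was at least 7 for 16 collagen genes, 5 to 7 for 25 and under 5 for 3. C3H/HeJ replicate 2 stood apart, with a median of 12 skeletal muscle markers 3.39 and of 9 fat cell markers 2.11 above the mean over the arrays, so calls in this strain are also given without it. Run numbers in the array names were grouped by strain, except that MRL/MpJ replicate 3 had a later number than the BALB/cJ arrays, which followed the other MRL/MpJ replicates. Outside MRL/MpJ, a step between runs cannot be told apart from the strain, and the counts of MRL/MpJ calls are also given without replicate 3. A change in signal can also come from strain differences in sequence under the probes, which was not tested. In whole lung, fewer cells of a type and less RNA per cell cannot be told apart.

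Most collagen genes differed little among strains. The difference between the highest and the lowest strain mean had a median of 0.39 over the 44 genes, a 1.31-fold difference, beside 0.34 over all named genes. It was under 0.5 in 30 genes and over 0.8 in 4, namely Col4a6, Col8a1, Col6a3 and Col12a1. The median standard deviation within a strain was 0.11 in both sets of genes. A difference among the 9 strain means was tested by limma's moderated F at a Benjamini-Hochberg adjusted p under 0.05, and 20 of 44 collagen genes passed, which is 45.5%, beside 28.9% of all named genes. In at least 1 of the 36 strain pairs, 33 of 44 passed with no minimum difference, which is 75.0%, beside 47.5% of all named genes. With a log2 difference of at least 1 asked for as well, 1 collagen gene was called, Col4a6, which is 2.27%, beside 4.27% of all named genes. Of the 20 genes that passed the F test, 14 kept their call whichever of the 27 arrays was left out.

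**Figure D1:**
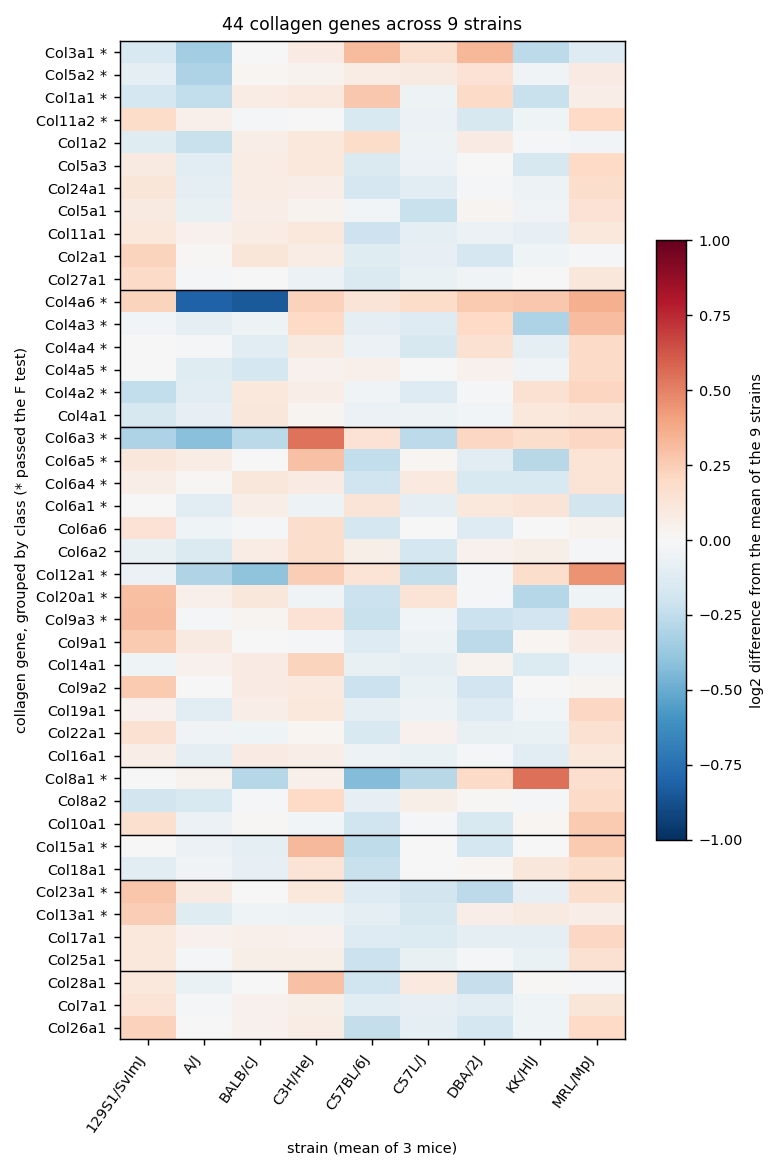
Each row is 1 of the 44 collagen genes, grouped by class and ordered by p-value within a class, and each column is 1 of the 9 strains. Colour gives the log2 difference of the strain mean (3 mice) from the mean of the 9 strains, on a scale from -1 to 1, and an asterisk marks the 20 genes that passed the F test. Col4a6 in A/J and BALB/cJ is the darkest pair of cells, and most other cells lie within 0.5 of 0.

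Type IV was the class with the largest share of genes passing the F test, 5 of 6. Col4a6 encodes the alpha6 chain, which joins alpha5 chains in the basement membranes of smooth muscle and some epithelia. It was 1.92 to 2.29-fold lower in A/J and BALB/cJ than in the other 7 strains. From the lowest strain mean up, Col4a6 read 4.94, 5.002 and 4.63 in BALB/cJ, 4.84, 4.91 and 4.91 in A/J and 5.80, 6.03 and 5.66 in C57BL/6J. It read 6.04, 5.71 and 5.88 in C57L/J, 5.84, 6.02 and 5.90 in 129S1/SvlmJ and 5.95, 5.81 and 6.02 in C3H/HeJ, and 5.98, 6.02 and 5.87 in DBA/2J, 5.93, 6.02 and 5.94 in KK/HlJ and 6.13, 5.94 and 6.08 in MRL/MpJ. The 6 arrays of A/J and BALB/cJ lay between 4.63 and 5.0 and the 21 arrays of the other strains between 5.66 and 6.13, so the sets did not overlap. The 14 pairs that set A/J or BALB/cJ against another strain all passed, with differences of -0.94 to -1.19, a standard error of 0.10 and limma adjusted p from 3.51e-08 to 1.07e-06, and 11 of them reached the minimum of 1. Among the 22 remaining pairs, the pair of A/J and BALB/cJ included, 0 passed and the widest difference was 0.22. The F test gave an adjusted p of 1.15e-09, at most 1.32e-08 with any 1 array left out. The lower levels of A/J and BALB/cJ were near the 5.25 of Sry, so the fold is that of the probe signal and not of transcript number.

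**Figure D2:**
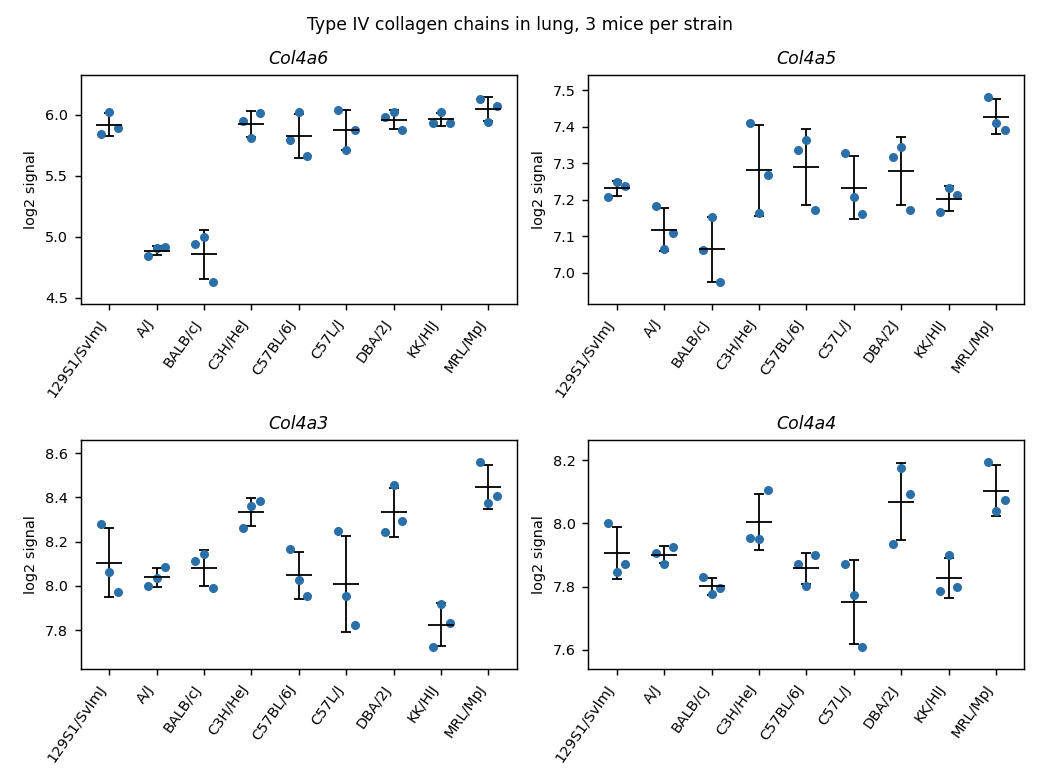
Log2 signal of Col4a6, Col4a5, Col4a3 and Col4a4 on each of the 27 arrays, by strain. Points are mice, horizontal bars the strain mean and error bars 1 SD (n = 3); each panel has its own scale. A/J and BALB/cJ have Col4a6 means of 4.89 and 4.86 beside 5.83 to 6.05 in the other strains, while MRL/MpJ has the highest mean in all 4 panels.

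Col4a6 lies head to head with Col4a5, the alpha5 chain gene, on chromosome X, and the stretch between them is known as a shared control region. The sequences just ahead of both annotated starts are shown because the signals of these neighbours moved unequally. They are from RefSeq on GRCm38.p6, written 5′ to 3′ along the gene's own strand and end at the base before the first annotated start; capitals mark the letters CCAAT, searched on both strands. Col4a6 is chrX:141474096-141474326 on the minus strand, and Col4a5 is chrX:141475169-141475369 on the plus strand.
Col4a6: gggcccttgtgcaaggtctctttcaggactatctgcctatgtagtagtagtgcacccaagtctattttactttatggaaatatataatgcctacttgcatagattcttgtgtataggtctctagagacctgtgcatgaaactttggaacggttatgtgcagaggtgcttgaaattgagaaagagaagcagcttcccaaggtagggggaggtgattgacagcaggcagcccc
Col4a5: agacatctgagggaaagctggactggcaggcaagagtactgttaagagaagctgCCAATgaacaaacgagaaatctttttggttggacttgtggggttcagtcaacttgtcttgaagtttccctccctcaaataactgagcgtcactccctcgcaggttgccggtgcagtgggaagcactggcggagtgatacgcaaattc
The Col4a6 stretch of 231 bases held 45.5% G and C and neither CCAAT nor the GC box letters GGGCGG nor the TATA box letters TATAAA. The Col4a5 stretch of 201 bases held 49.8% G and C, 1 CCAAT starting 147 bases ahead of the start, and neither other motif. Both are the reference sequence, and the strains' own sequence there was not analysed here.

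Col4a5 followed Col4a6 only in part. Col4a5 read 7.06, 7.15 and 6.98 in BALB/cJ, 7.18, 7.06 and 7.11 in A/J and 7.17, 7.23 and 7.21 in KK/HlJ. It read 7.21, 7.25 and 7.24 in 129S1/SvlmJ, 7.33, 7.21 and 7.16 in C57L/J and 7.32, 7.34 and 7.17 in DBA/2J, and 7.41, 7.16 and 7.27 in C3H/HeJ, 7.33, 7.36 and 7.17 in C57BL/6J and 7.48, 7.41 and 7.39 in MRL/MpJ. BALB/cJ and A/J had the 2 lowest means, but their 6 arrays, 6.98 to 7.18, overlapped those of other strains. The mean of A/J and BALB/cJ was 7.09 for Col4a5 beside 7.28 in the other 7 strains, a difference of -0.19, and for Col4a6 the same difference was -1.06. Col4a5 passed the F test with an adjusted p of 0.0209, which was lost without MRL/MpJ replicate 1 or BALB/cJ replicate 3 (up to 0.0628). Along the chromosome, 0 of the 20 nearest named genes, 10 on each side of Col4a6, was called in a strain pair. Over all named genes 4.27% were called, so few calls are awaited among 20 genes. By the F test 7 of the 20 passed, Col4a5 among them, beside 28.9% of all named genes. The differences of the 20 genes between A/J with BALB/cJ and the other 7 strains ran from -0.19 for Gm5643 to 0.36 for Tsc22d3, a glucocorticoid-induced transcription regulator.

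Col4a3 and Col4a4 encode the chains that join alpha5 in the basement membrane of the alveolus and the kidney glomerulus. Col4a3 read 7.72, 7.92 and 7.83 in KK/HlJ, 8.25, 7.95 and 7.82 in C57L/J and 7.998, 8.03 and 8.08 in A/J. It read 8.16, 8.03 and 7.95 in C57BL/6J, 8.11, 8.14 and 7.99 in BALB/cJ and 8.28, 8.06 and 7.97 in 129S1/SvlmJ, and 8.24, 8.46 and 8.29 in DBA/2J, 8.26, 8.36 and 8.38 in C3H/HeJ and 8.56, 8.38 and 8.40 in MRL/MpJ. MRL/MpJ lay wholly above KK/HlJ, A/J, BALB/cJ, C57L/J, C57BL/6J and 129S1/SvlmJ, while C3H/HeJ and DBA/2J overlapped it. KK/HlJ was 0.35 below the mean of the other 8 strains (SE 0.07, adjusted p 0.00282) and MRL/MpJ 0.35 above it (SE 0.07, adjusted p 0.00289). Both calls held with any 1 array left out, and Col4a3 passed the F test at 4.84e-04. Col4a4 ran from 7.75 ± 0.13 (SD, n = 3) in C57L/J to 8.10 ± 0.08 in MRL/MpJ and passed at 0.00632.

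Col4a1 and Col4a2 encode the chains found in nearly every basement membrane. Col4a1 read 8.95, 8.71 and 8.50 in 129S1/SvlmJ, 8.71, 8.73 and 8.95 in A/J and 8.83, 8.71 and 8.93 in C57BL/6J. It read 8.92, 9.05 and 8.50 in C57L/J, 8.90, 8.89 and 8.78 in DBA/2J and 8.90, 8.73 and 9.07 in C3H/HeJ, and 9.10, 8.96 and 8.89 in KK/HlJ, 8.97, 8.99 and 9.01 in BALB/cJ and 8.93, 9.05 and 9.05 in MRL/MpJ. The means of the 9 strains lay within 0.29 of each other, 1 array of 129S1/SvlmJ and 1 of C57L/J were lowest at 8.50, and Col4a1 did not pass the F test (adjusted p 0.386). Col4a2 read 9.09, 8.80 and 8.66 in 129S1/SvlmJ, 9.11, 9.17 and 8.64 in C57L/J and 8.90, 8.90 and 9.16 in A/J. It read 9.03, 8.98 and 9.18 in C57BL/6J, 9.07, 9.19 and 8.99 in DBA/2J and 9.16, 9.06 and 9.27 in C3H/HeJ, and 9.25, 9.26 and 9.12 in BALB/cJ, 9.22, 9.31 and 9.23 in KK/HlJ and 9.36, 9.25 and 9.34 in MRL/MpJ. The MRL/MpJ and KK/HlJ arrays, 9.22 to 9.36, lay above all arrays of 129S1/SvlmJ, A/J, C57BL/6J, C57L/J and DBA/2J. Col4a2 passed the F test narrowly at 0.0453, and the call was lost with 18 of the 27 arrays left out in turn (up to 0.108). All 6 type IV chains had their highest mean in MRL/MpJ. In MRL/MpJ 4 of the 6 were called above the mean of the other 8 strains, beside 6.83% of all named genes. They exceeded it by 0.40 for Col4a6, 0.35 for Col4a3, 0.21 for Col4a5 and 0.21 for Col4a4. For Col4a6 that mean holds the low values of A/J and BALB/cJ. Among the 22 pairs that do not set A/J or BALB/cJ against another strain, 0 passed for Col4a6. The widest difference among them was 0.22, so MRL/MpJ was not told apart from the strains outside A/J and BALB/cJ. Without MRL/MpJ replicate 3, the array with the separate run number, 3 of the 6 were called, beside 2.76% of all named genes. Col4a4 was then not called (adjusted p 0.0583). In this strain 10 capillary endothelial markers had a median of 0.09 above the other 8 strains (1 called higher, 0 lower) and 8 alveolar type I markers one of 0.08 (0 higher, 1 lower). Their summed linear signals were 14496 to 15133 and 11442 to 12942 in MRL/MpJ, beside 12543 to 15620 and 9943 to 14160 over the other strains. The part of such cells in the type IV levels was not tested.

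Among the fibrillar collagens, 4 of 11 passed the F test: Col3a1, Col5a2, Col1a1 and Col11a2. Col1a1, Col1a2, Col3a1 and Col5a2 each had their lowest mean in A/J and their highest in DBA/2J or C57BL/6J, which the type V chains Col5a1 and Col5a3 did not. Col3a1, the only chain of type III collagen, varied most. Col3a1 read 9.02, 9.11 and 8.94 in A/J, 9.27, 9.04 and 9.02 in KK/HlJ and 9.42, 9.12 and 9.13 in 129S1/SvlmJ. It read 9.10, 9.27 and 9.36 in MRL/MpJ, 9.31, 9.46 and 9.37 in BALB/cJ and 9.37, 9.52 and 9.47 in C3H/HeJ, and 9.53, 9.49 and 9.57 in C57L/J, 9.61, 9.86 and 9.59 in C57BL/6J and 9.78, 9.75 and 9.59 in DBA/2J. The 6 arrays of C57BL/6J and DBA/2J lay above the 21 others, whose highest was 9.57 in C57L/J. The 3 arrays of A/J overlapped those of KK/HlJ and MRL/MpJ and lay below all the rest. DBA/2J exceeded A/J by 0.68 (SE 0.10, adjusted p 3.68e-05), a 1.61-fold difference, and the F test gave 1.79e-05. Against the mean of the other 8 strains, A/J was 0.40 lower and DBA/2J 0.37 higher, and both calls held with any 1 array left out. C57BL/6J was 0.35 higher, lost without its replicate 2 (adjusted p 0.0677), and KK/HlJ 0.30 lower, lost without its replicate 2 or 3 (up to 0.0970).

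**Figure D3:**
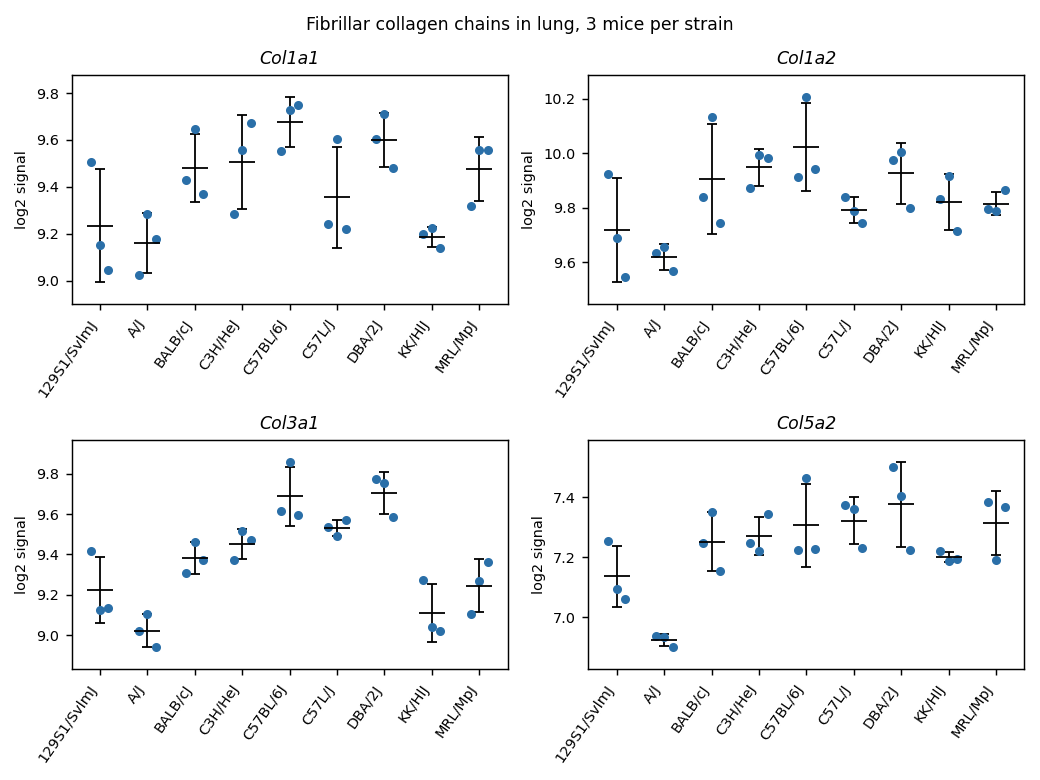
Log2 signal of the fibrillar genes Col1a1, Col1a2, Col3a1 and Col5a2 on each of the 27 arrays, by strain. Points are mice, horizontal bars the strain mean and error bars 1 SD (n = 3); each panel has its own scale. A/J has the lowest mean in all 4 panels, with Col3a1 at 9.02 in A/J beside 9.70 in DBA/2J.

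Col1a1 and Col1a2 encode the 2 chains of type I collagen, the main protein of lung fibrils. Col1a1 read 9.03, 9.28 and 9.18 in A/J, 9.20, 9.22 and 9.14 in KK/HlJ and 9.51, 9.15 and 9.05 in 129S1/SvlmJ. It read 9.24, 9.60 and 9.22 in C57L/J, 9.32, 9.56 and 9.56 in MRL/MpJ and 9.43, 9.65 and 9.37 in BALB/cJ, and 9.29, 9.56 and 9.67 in C3H/HeJ, 9.61, 9.71 and 9.48 in DBA/2J and 9.55, 9.73 and 9.75 in C57BL/6J. C57BL/6J lay wholly above A/J, KK/HlJ and 129S1/SvlmJ, and 129S1/SvlmJ alone spread over 9.05 to 9.51. C57BL/6J exceeded A/J by 0.52 (SE 0.12, adjusted p 0.0109). Col1a1 passed the F test at 0.0138, at most 0.0343 with any 1 array left out. Col1a2 read 9.64, 9.66 and 9.57 in A/J, 9.92, 9.69 and 9.54 in 129S1/SvlmJ and 9.84, 9.79 and 9.74 in C57L/J. It read 9.79, 9.79 and 9.86 in MRL/MpJ, 9.83, 9.92 and 9.71 in KK/HlJ and 9.84, 10.13 and 9.74 in BALB/cJ, and 9.98, 10.01 and 9.80 in DBA/2J, 9.87, 9.99 and 9.98 in C3H/HeJ and 9.91, 10.21 and 9.94 in C57BL/6J. A/J overlapped 129S1/SvlmJ only, and the highest single arrays were 10.21 in C57BL/6J and 10.13 in BALB/cJ. Col1a2 missed the F threshold with an adjusted p of 0.0596, and reached it without DBA/2J replicate 3, 129S1/SvlmJ replicate 1, BALB/cJ replicate 2 or BALB/cJ replicate 3 (down to 0.0224). Col5a2, a type V chain that regulates fibril width, was lowest in A/J at 6.92 ± 0.02 and highest in DBA/2J at 7.38 ± 0.14 (SD, n = 3), with an adjusted p of 0.00504. Its A/J value was 0.35 below the mean of the other 8 strains (SE 0.06, adjusted p 8.39e-04), and all 3 A/J arrays, at 6.90 to 6.94, were below the 24 others.

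Beside these fibrillar levels, 16 fibroblast markers had a median of -0.15 in A/J against the other 8 strains. Of these markers 0 were called higher and 3 lower, beside 1.96% and 3.75% of all named genes. Their summed linear signal was 13783 to 15892 in A/J, 13917 to 14753 in MRL/MpJ, 14360 to 16107 in C57BL/6J, 17096 to 18228 in DBA/2J and 17115 to 18318 in 129S1/SvlmJ. It was 14621 to 17860 in BALB/cJ, C3H/HeJ, C57L/J and KK/HlJ. The brightest genes weigh most in such a sum, among them Inmt with strain means of 12.52 to 12.95. The median of the 16 markers was -0.06 in C57BL/6J, with 0 called, and 0.05 in DBA/2J, with 1 called higher and 0 lower. The 9 smooth muscle markers had medians of -0.04 in A/J, -0.24 in KK/HlJ, where 3 were called lower, and 0.22 in MRL/MpJ, where 2 were called higher. Over all named genes 2.83% were lower in KK/HlJ and 6.83% higher in MRL/MpJ. The part of cell numbers in the fibrillar levels was not tested.

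The promoters of Col3a1 and Col1a2 are shown because Col3a1 varied most among the fibrillar chains and Col1a2 is the partner of Col1a1. Both are RefSeq sequence on GRCm38.p6, the 250 bases ahead of the first annotated start, 5′ to 3′ on the plus strand; capitals mark the same 3 motifs. Col3a1 is chr1:45311288-45311537 and Col1a2 is chr6:4505368-4505617.
Col3a1: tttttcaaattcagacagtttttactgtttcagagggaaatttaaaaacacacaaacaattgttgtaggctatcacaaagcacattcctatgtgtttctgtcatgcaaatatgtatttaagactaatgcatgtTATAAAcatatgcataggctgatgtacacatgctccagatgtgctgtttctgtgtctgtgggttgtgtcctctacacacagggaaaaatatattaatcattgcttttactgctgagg
Col1a2: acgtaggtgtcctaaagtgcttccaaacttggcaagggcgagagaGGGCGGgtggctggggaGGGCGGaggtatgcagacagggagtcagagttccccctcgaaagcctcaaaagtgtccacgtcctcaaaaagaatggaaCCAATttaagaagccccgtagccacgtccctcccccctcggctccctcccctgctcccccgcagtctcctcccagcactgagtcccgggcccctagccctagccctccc
Col3a1 held 35.2% G and C and 1 TATAAA starting 117 bases ahead of the start. Col1a2 held 62.0% G and C, 1 CCAAT starting 109 bases ahead and 2 GGGCGG further ahead. Over all promoters, searched in the 250 bases ahead of the start on both strands, CCAAT was in 33.8%, GGGCGG in 32.7% and TATAAA in 12.4% of 32851 windows. Of the 44 collagen genes 35 had a window, 38 windows in all, with CCAAT in 34.2%, GGGCGG in 57.9% (22 windows) and TATAAA in 13.2%.

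The other fibrillar genes are mostly known from cartilage or as minor chains. Col11a2, a cartilage fibril chain, ran from 6.23 ± 0.13 in DBA/2J to 6.58 ± 0.06 in MRL/MpJ (SD, n = 3; adjusted p 0.0355, lost in 8 of the 27 leave-one-out fits, up to 0.0781). Col2a1, Col11a1, Col5a1, Col5a3, Col24a1 and Col27a1 did not pass, with adjusted p of 0.127 to 0.401 and ranges over strain means of 0.31 to 0.39. Col2a1, the main cartilage chain, ran from 6.13 ± 0.14 in DBA/2J to 6.52 ± 0.14 in 129S1/SvlmJ.

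Type VI had 4 of 6 genes passing the F test. Col6a1, Col6a2 and Col6a3 encode the classic chains of the beaded filaments. Col6a1 read 8.43, 8.55 and 8.33 in MRL/MpJ, 8.53, 8.48 and 8.54 in A/J and 8.62, 8.63 and 8.35 in C57L/J. It read 8.52, 8.51 and 8.68 in C3H/HeJ, 8.76, 8.61 and 8.51 in 129S1/SvlmJ and 8.68, 8.76 and 8.62 in BALB/cJ, and 8.75, 8.76 and 8.66 in DBA/2J, 8.72, 8.77 and 8.77 in KK/HlJ and 8.65, 8.84 and 8.77 in C57BL/6J. The differences were small: MRL/MpJ, the lowest strain, was 0.21 below the mean of the other 8 (SE 0.06, adjusted p 0.0318), lost without its replicate 1 or 3 (up to 0.242). The F call at 0.0253 was lost without the same arrays (up to 0.0653). Col6a3, the largest chain, varied far more, from 8.08 ± 0.15 in A/J to 9.04 ± 0.29 in C3H/HeJ (SD, n = 3), a difference of 0.96 (SE 0.16, adjusted p 4.47e-04). C3H/HeJ was 0.61 above the mean of the other 8, 0.75 without its replicate 2 and at least 0.46 with any 1 array left out, and the call held throughout. Without 129S1/SvlmJ replicate 1, C3H/HeJ replicate 2 or A/J replicate 2, Col6a3 also reached the minimum of 1 in 1 pair. A/J was 0.47 below the other strains, lost without any 1 of its replicates (up to 0.173). Col6a2 did not pass (adjusted p 0.218) and ran from 7.75 ± 0.18 in C57L/J to 8.11 ± 0.12 in C3H/HeJ, 8.16 without replicate 2 of that strain.

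Col6a5, Col6a4 and Col6a6 are the chains of type VI described later. Col6a5 ran from 5.08 ± 0.14 in KK/HlJ to 5.65 ± 0.20 in C3H/HeJ (SD, n = 3; adjusted p 0.00591). Its means in KK/HlJ and in C57BL/6J (5.11) were below the 5.25 of Sry. Its C3H/HeJ call, 0.33 above the other 8 strains, fell to 0.21 without replicate 2 of that strain and no longer passed (adjusted p 0.277). Col6a4 ran from 4.99 ± 0.10 in C57BL/6J to 5.32 ± 0.05 in MRL/MpJ (adjusted p 0.00908), all near the level of Sry. Col6a6 ran from 5.53 to 5.88 and did not pass (adjusted p 0.148).

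Among the short-chain network collagens, 1 of 3 passed, Col8a1, which encodes a chain of the type VIII lattice made by endothelial and smooth muscle cells. Col8a1 was highest in KK/HlJ at 6.89 ± 0.14 and lowest in C57BL/6J at 5.90 ± 0.09 (SD, n = 3). KK/HlJ exceeded C57BL/6J by 0.99 (SE 0.11, adjusted p 1.66e-06), just short of the minimum of 1, which it reached without KK/HlJ replicate 3 or C57BL/6J replicate 3. KK/HlJ was 0.62 above the mean of the other 8 strains and C57BL/6J 0.49 below it. With any 1 array left out they were 0.57 to 0.70 above and 0.45 to 0.53 below, and both calls held. Its partner Col8a2 did not pass (adjusted p 0.138), and ran from 5.71 in 129S1/SvlmJ to 6.09 in C3H/HeJ. Without C3H/HeJ replicate 2 that strain had 6.04, and Col8a2 was highest in MRL/MpJ. Col10a1, a chain of growth-plate cartilage, had means of 4.29 to 4.75 (adjusted p 0.209). The 10 capillary endothelial markers had a median of 0.05 in KK/HlJ (1 called higher, 0 lower) and -0.01 in C57BL/6J (0 higher, 2 lower). The 9 smooth muscle markers had one of -0.24 in KK/HlJ, the strain highest for Col8a1 (0 higher, 3 lower), and 0.05 in C57BL/6J (0 called). Over all named genes 4.55% were called higher and 2.83% lower in KK/HlJ, and 4.06% and 4.11% in C57BL/6J. The part of either cell type in Col8a1 was not tested.

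Among the fibril-associated (FACIT) collagens, which sit on the surface of fibrils, 3 of 9 passed: Col12a1, Col20a1 and Col9a3. Col12a1, which links fibrils in tissues under tension, ran from 6.81 ± 0.09 in BALB/cJ to 7.67 ± 0.16 in MRL/MpJ (SD, n = 3), a difference of 0.85 (SE 0.11, adjusted p 2.46e-05). BALB/cJ was 0.45 below and MRL/MpJ 0.51 above the mean of the other 8 strains, both held with any 1 array left out. A/J was 0.34 below, lost without its replicate 1 or 3 (up to 0.130). C3H/HeJ was 0.28 above, lost in 18 of the 27 leave-one-out fits. Col20a1 ran from 5.93 ± 0.12 in KK/HlJ to 6.52 ± 0.09 in 129S1/SvlmJ (adjusted p 0.00205). Col9a3, a chain of type IX collagen of cartilage, ran from 5.89 ± 0.07 in C57BL/6J to 6.42 ± 0.08 in 129S1/SvlmJ (adjusted p 0.0458, lost in 15 fits, up to 0.105). Col9a1, Col9a2, Col14a1, Col16a1, Col19a1 and Col22a1 did not pass, with adjusted p of 0.0735 to 0.389 and ranges of 0.21 to 0.52. Col14a1, a fibril-associated chain of lung fibroblasts, was highest in C3H/HeJ at 8.47 ± 0.10 and lowest in KK/HlJ at 8.11 ± 0.09. Without C3H/HeJ replicate 2 that strain was still highest, at 8.41, but Col14a1 was no longer called there (adjusted p 0.266).

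**Figure D4:**
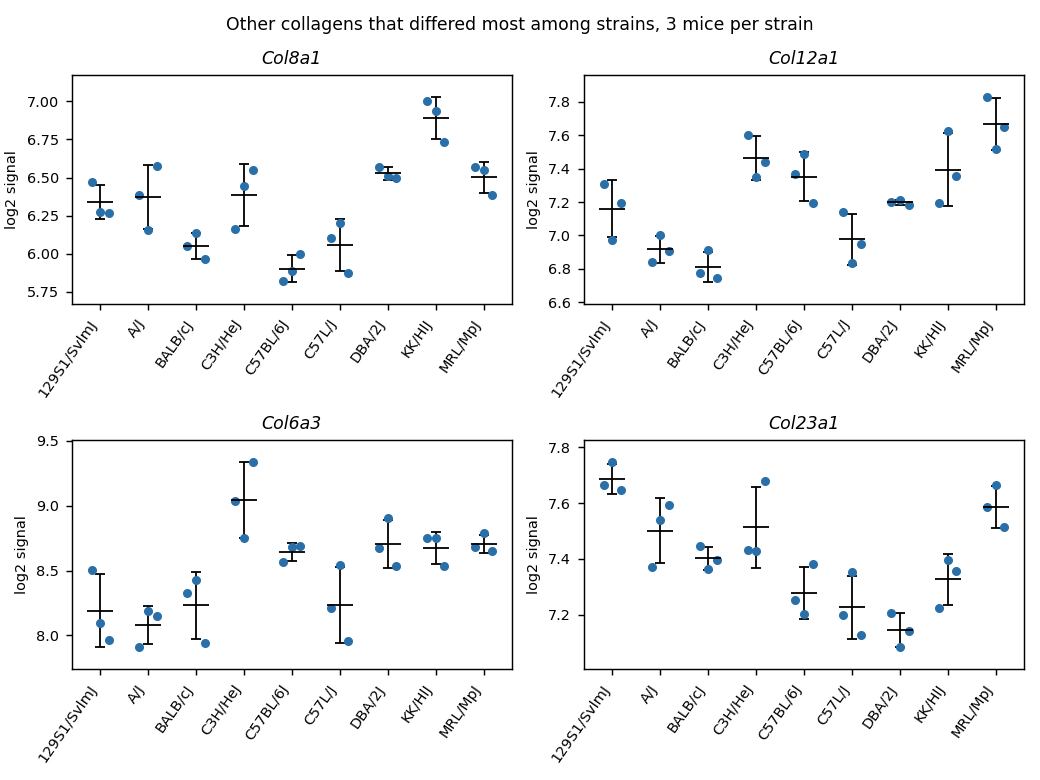
Log2 signal of Col8a1, Col12a1, Col6a3 and Col23a1 on each of the 27 arrays, by strain. Points are mice, horizontal bars the strain mean and error bars 1 SD (n = 3); each panel has its own scale. KK/HlJ is highest for Col8a1 (6.89), MRL/MpJ for Col12a1 (7.67), C3H/HeJ for Col6a3 (9.04) and 129S1/SvlmJ for Col23a1 (7.69).

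Col15a1 and Col18a1 are the multiplexins, proteoglycan-like collagens of basement membranes; the end of the Col18a1 chain is cut off as endostatin. Col15a1 read 5.94, 5.88 and 5.81 in C57BL/6J, 6.04, 6.10 and 5.72 in DBA/2J and 6.02, 6.25 and 5.83 in BALB/cJ. It read 6.09, 6.20 and 5.92 in A/J, 6.14, 6.21 and 6.03 in 129S1/SvlmJ and 6.13, 6.16 and 6.11 in KK/HlJ, and 6.12, 6.12 and 6.17 in C57L/J, 6.55, 6.35 and 6.27 in MRL/MpJ and 6.44, 6.73 and 6.19 in C3H/HeJ. C3H/HeJ and MRL/MpJ were highest, and all arrays of MRL/MpJ lay above all others outside C3H/HeJ. C3H/HeJ was 0.37 above the mean of the other 8 strains (adjusted p 0.0150), 0.23 without its replicate 2 (0.249), and the call was also lost without its replicate 1. MRL/MpJ was 0.29 above (adjusted p 0.0359), lost without any 1 of its 3 replicates, and Col15a1 passed the F test at 0.00848. Col18a1 read 6.49, 6.42 and 6.63 in C57BL/6J, 6.69, 6.68 and 6.52 in 129S1/SvlmJ and 6.71, 6.78 and 6.48 in BALB/cJ. It read 6.68, 6.68 and 6.74 in A/J, 6.94, 6.73 and 6.50 in C57L/J and 6.75, 6.95 and 6.57 in DBA/2J, and 6.80, 7.03 and 6.71 in KK/HlJ, 6.75, 6.93 and 6.92 in C3H/HeJ and 6.85, 6.84 and 7.04 in MRL/MpJ. The strains overlapped widely, the highest arrays being 7.04 in MRL/MpJ and 7.03 in KK/HlJ, and Col18a1 did not pass (adjusted p 0.102).

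Of the transmembrane collagens, 2 of 4 passed, Col23a1 and Col13a1. Col23a1 ran from 7.14 ± 0.06 in DBA/2J to 7.69 ± 0.05 in 129S1/SvlmJ (SD, n = 3), a difference of 0.54 (SE 0.08, adjusted p 9.39e-05). 129S1/SvlmJ was 0.31 above the mean of the other 8 strains. With any 1 array left out it was 0.28 to 0.33 above, and the call held. DBA/2J was 0.30 below it, a call lost without DBA/2J replicate 2 (adjusted p 0.0502). Col13a1, found at cell junctions and the neuromuscular synapse, ran from 7.34 ± 0.17 in C57L/J to 7.74 ± 0.12 in 129S1/SvlmJ (adjusted p 0.0482, lost in 19 fits, up to 0.146). Col17a1, a hemidesmosome protein of basal epithelial cells, and Col25a1 did not pass (0.151 and 0.166). Col7a1, the anchoring fibril chain of stratified epithelia, Col26a1 and Col28a1 did not pass either, with adjusted p of 0.165, 0.227 and 0.0727.

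Seen by strain, each collagen gene of each strain was set against the mean of the other 8, and 48 of 396 such comparisons passed at an adjusted p under 0.05, 12.1% beside 7.54% over all named genes. There were 26 higher and 22 lower calls, in 22 genes. For Col4a6 the 5 higher calls, in 129S1/SvlmJ, C3H/HeJ, DBA/2J, KK/HlJ and MRL/MpJ, have A/J and BALB/cJ in the mean they are set against. Without Col4a6 41 calls were left. Of the 48, 14 held in all 27 fits that left out 1 array. With the run number as a covariate, which nearly follows the strains, 15 passed, among them Col3a1 in A/J and DBA/2J, Col4a6 in A/J and BALB/cJ, Col6a3 in C3H/HeJ and Col8a1 in C57BL/6J.

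MRL/MpJ had 8 collagen genes higher, beside 6.83% of all named genes, and 1 lower, beside 5.61%. The 8 were the 4 type IV chains named above with Col12a1, Col15a1, Col23a1 and Col11a2, and the lower one was Col6a1. MRL/MpJ had the highest mean of the 9 strains for 18 of 44 collagen genes, and also for 4286 of 20239 named genes. Without MRL/MpJ replicate 3, 4 of the 8 higher calls were kept, beside 2.76% of all named genes, and they were Col12a1, Col4a3, Col4a6 and Col4a5; Col6a1 was no longer called. Leaving out replicate 1 instead left 3 higher, beside 3.41%, and replicate 2 left 6, beside 6.37%. C3H/HeJ had 7 higher, beside 4.18%, and 0 lower, beside 3.08%: Col6a3, Col15a1, Col28a1, Col6a5, Col12a1, Col4a6 and Col14a1. Without C3H/HeJ replicate 2, the array rich in muscle and fat markers, 1 of these 7 was kept, Col6a3, beside 2.06% of all named genes called higher. Leaving out replicate 1 instead left 4 higher, beside 2.94%, and replicate 3 left 4, beside 5.22%. The median of the 44 collagen genes against the other 8 strains was 0.09 with all C3H/HeJ arrays and 0.10 without replicate 2. 129S1/SvlmJ had 5 higher, beside 3.54%, and 1 lower, beside 6.43%. They were Col23a1, Col20a1, Col13a1, Col9a1 and Col4a6, and Col4a2 was the lower one. With 1 of its own arrays left out, 129S1/SvlmJ had 1 to 4 higher, beside 1.66% to 2.39%, and 0 to 3 lower, beside 3.36% to 4.51%. In 129S1/SvlmJ 8 mesothelial markers, of the cells that cover the lung, had a median of 0.40 above the other 8 strains, with 5 called higher and 0 lower. Their summed linear signal was 3054 to 4037, beside 1746 to 2841 over the other strains, so the arrays did not overlap. The 8 alveolar type I markers had a median of 0.25 with 4 called higher, and a sum of 11229 to 14160 beside 9943 to 13556. The 16 fibroblast markers had a median of 0.11 with 4 higher, and the 10 capillary endothelial markers one of -0.08 with 1 higher and 3 lower. The part of these cells in the collagen levels of 129S1/SvlmJ was not tested.

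A/J had 5 collagen genes lower, beside 3.75% of all named genes, and 0 higher, beside 1.96%: Col4a6, Col3a1, Col5a2, Col6a3 and Col12a1. BALB/cJ had 4 lower, beside 3.01%, and 0 higher, beside 2.48%: Col4a6, Col12a1, Col8a1 and Col4a5. C57BL/6J had 2 higher, beside 4.06%, and 4 lower, beside 4.11%. The higher ones were the fibril chains Col3a1 and Col1a1, and the lower ones Col8a1, Col20a1, Col6a5 and Col6a4. KK/HlJ had 2 higher, beside 4.55%, Col8a1 and Col4a6, and 4 lower, beside 2.83%, Col3a1, Col4a3, Col20a1 and Col6a5. DBA/2J had 2 higher, beside 2.87%, Col3a1 and Col4a6, and 1 lower, beside 1.94%, Col23a1. C57L/J had 0 higher, beside 3.69%, and 2 lower, beside 2.94%, Col8a1 and Col23a1. With 1 of the strain's own arrays left out, the lower calls were 3 to 4 in A/J, beside 1.84% to 2.32% of all named genes. They were 2 to 3 in BALB/cJ, beside 1.53% to 2.07%, and 1 to 2 in C57BL/6J, beside 1.73% to 2.65%. KK/HlJ had 2 to 4, beside 2.05% to 2.18%. DBA/2J had 0 to 1, beside 0.939% to 1.46%, and C57L/J 0 to 3, beside 1.81% to 2.28%. Higher calls were 0 to 1 in C57BL/6J, beside 2.21% to 2.99%, and 1 to 2 in KK/HlJ, beside 2.72% to 4.28%. DBA/2J had 1 higher, beside 1.39% to 2.03%, and A/J, BALB/cJ and C57L/J had 0, beside 1.04% to 3.16%.

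C57BL/6J and 129S1/SvlmJ took different places among dim and bright collagen genes, split by mean probe signal. MRL/MpJ and C3H/HeJ were above the other strains for most genes of both. C3H/HeJ, with its replicate 2 included, was above for 21 of 25 dim genes, beside 61.7% of all named genes of that level. It was above for 14 of 16 bright genes, beside 49.5%. Of the 25 collagen genes with a mean of 5 to 7, C57BL/6J exceeded the other 8 strains on average for 1, beside 35.1% of all 6354 named genes of that level, with a median difference of -0.19 beside -0.06. In 129S1/SvlmJ 22 of these 25 were above, beside 52.1%, with a median of 0.14 beside 0.01. In MRL/MpJ 23 were above, beside 64.1%, with a median of 0.17 beside 0.06. Of the 16 collagen genes with a mean of at least 7, 9 were above in C57BL/6J, beside 50.3% of 7790 named genes, with a median of 0.06 beside 5.9e-04. In 129S1/SvlmJ 3 of the 16 were above, beside 40.6%, with a median of -0.07 beside -0.03. In MRL/MpJ 11 were above, beside 41.1%, with a median of 0.12 beside -0.03. These genes were read on the same arrays, so their number is not a number of replicates. By array, the median deviation of all 44 collagen genes from their mean over the arrays ran from -0.0010 to 0.14 in 129S1/SvlmJ. It ran from -0.16 to -0.04 in C57BL/6J, 0.12 to 0.15 in MRL/MpJ and -0.16 to 0.12 in DBA/2J. C57BL/6J had the lowest mean of the 9 strains for 15 of 44 collagen genes and for 4307 of 20239 named genes. The 14 cartilage markers had medians of 0.13 in 129S1/SvlmJ, -0.11 in C57BL/6J and -0.11 in DBA/2J. In 129S1/SvlmJ 0 of the 14 were called higher and 1 lower, in C57BL/6J 2 and 1, and in DBA/2J 1 and 2. Their summed linear signal took another order, 1270 to 1542 in 129S1/SvlmJ, 4161 to 4500 in C57BL/6J and 1652 to 1937 in DBA/2J. The list holds Chil1, which lung cells also express and which was lowest in MRL/MpJ at 8.82 and highest in KK/HlJ at 11.90. Chad, also on the list, was highest in C57BL/6J at 7.99 and lowest in MRL/MpJ at 6.66, while Cytl1 was lowest in C57BL/6J at 8.23. Acan, the main cartilage proteoglycan, had means of 3.69 to 4.04. The part of cartilage cells in the dim collagen genes was not tested.

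Chains that assemble into 1 molecule or fibril were then compared over the 9 strain means, in 16 pairs. In 15 pairs the strains formed no separate clusters, and 10 of these reached an adjusted p under 0.05 in an exact two-sided permutation test of Pearson's r, 8 of Spearman's rho. All points share the arrays of the same mice. The 2 chains of the common type IV molecule, Col4a1 and Col4a2, gave r = 0.97 (rho 0.93, exact permutation adjusted p 3.97e-04 for r and 0.0120 for rho). Without 129S1/SvlmJ and MRL/MpJ, the 2 strains farthest from the median of Col4a1, r was 0.94. The type I chains Col1a1 and Col1a2 gave r = 0.88 (rho 0.88, exact permutation adjusted p 0.00826 and 0.0123), and 0.93 without A/J and KK/HlJ. Col4a3 and Col4a4 gave r = 0.88 (rho 0.83, exact permutation adjusted p 0.00826 and 0.0189), and 0.89 without KK/HlJ and MRL/MpJ. Col2a1 and Col11a1, partners in cartilage fibrils, gave r = 0.77 (rho 0.78, exact permutation adjusted p 0.0223 and 0.0344), and 0.84 without 129S1/SvlmJ and DBA/2J; this call was lost in 2 of the 27 fits that left out 1 array. These 4 pairs also had an unadjusted p under 0.05 without the 2 strains.

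Another 6 pairs passed on all 9 strains but not on the 7 left without the 2 farthest, while r stayed at 0.64 or above. The 2 strains were chosen by the first gene of the pair. Fewer strains over a narrower range also weaken the test, so the loss cannot tell whether the calls rest on those strains. With any 1 strain left out, 5 of the 6 kept their call, and Col6a2 with Col6a3 did not (adjusted p up to 0.122). Col6a2 with Col6a3 and Col11a1 with Col11a2 also lost theirs in 1 fit each that left out 1 array (adjusted p 0.0523 and 0.0575). By Spearman's rho, Col6a2 with Col6a3 (0.52, exact permutation adjusted p 0.199) and Col9a1 with Col9a2 (0.67, 0.105) did not pass. Col1a1 and Col3a1 had r = 0.87 and 0.72 without A/J and KK/HlJ, and Col3a1 and Col5a2 had 0.79 and 0.64 without A/J and DBA/2J. Col6a2 and Col6a3 had 0.78 and 0.65 without A/J and C57L/J. Col9a1 with Col9a2, Col9a2 with Col9a3 and Col11a1 with Col11a2 had r of 0.87, 0.87 and 0.80, and 0.65, 0.70 and 0.75 without their 2 strains. The 5 that did not pass were Col4a4 with Col4a5 (r = 0.67, exact permutation adjusted p 0.0616), Col6a1 with Col6a2 (0.46), Col8a1 with Col8a2 (0.18), Col6a1 with Col6a3 (0.16) and Col5a1 with Col5a2 (0.10). For Col6a1 with Col6a3 the array deviations from the strain means correlated at 0.73 over the 27 arrays and the strain means at 0.16. For Col4a1 with Col4a2 the array deviations gave 0.87 and for Col8a1 with Col8a2 -0.08. Col4a5 and Col4a6 fell into 2 clusters, A/J with BALB/cJ and the rest, and within the other 7 strains r was 0.55 (rho 0.04, exact permutation p 0.212 and 0.963).

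**Figure D5:**
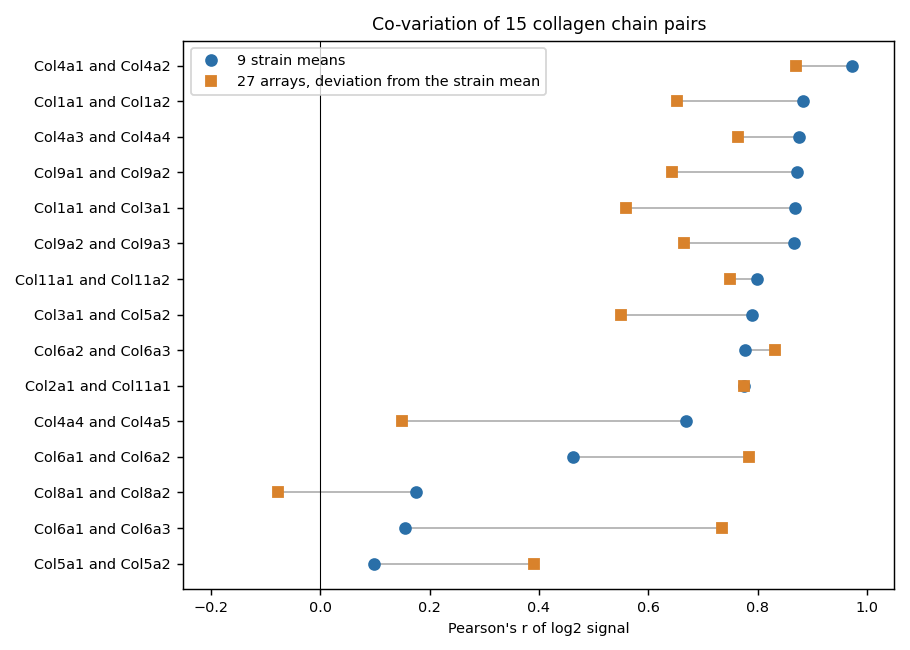
Pearson's r of log2 signal for 15 pairs of collagen chains, ordered by r over the 9 strain means (circles). Squares give r of the deviations from the strain mean over 27 arrays, and lines join the 2 values of a pair. Col4a1 and Col4a2 are highest at 0.97 and 0.87, and Col6a1 with Col6a3 has 0.16 over strains and 0.73 within them.

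The study related lung expression at 11 weeks to the adenoma class of the strain, so the strain was taken as the unit, with limma on the 9 strain means. For severity, 7 strains labelled increased were set against KK/HlJ and MRL/MpJ. At an adjusted p under 0.05, 0 of 44 collagen genes was called, beside 0.00988% of all named genes, and 3 had an unadjusted p under 0.05, 6.82% beside 7.04%. They were Col8a1, 0.46 lower in the increased class (SE 0.16, adjusted p 0.676), Col12a1, 0.40 lower (SE 0.16, adjusted p 0.696), and Col4a2, 0.24 lower (SE 0.09, adjusted p 0.687). The strain means of Col4a2 did not overlap, with 8.85 to 9.21 in the 7 strains and 9.25 to 9.32 in the 2. Those of Col4a6 did not overlap either, by a small gap between DBA/2J at 5.960 and KK/HlJ at 5.965. These 2 of 44 genes are 4.55%, beside 6.69% of all named genes. Taking the 27 arrays as independent, which ignores that mice of 1 strain share a class, called Col8a1 and Col12a1 (adjusted p 0.0247 and 0.0494).

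For frequency, A/J, C57BL/6J and DBA/2J were set against the other 6 strains. At an adjusted p under 0.05, 0 of 44 collagen genes was called, beside 0% of all named genes, and 8 had an unadjusted p under 0.05, 18.2% beside 7.7%. They were Col28a1, Col6a6, Col10a1, Col19a1, Col9a2, Col15a1, Col26a1 and Col6a4, all lower in the increased class, by 0.17 to 0.25, each with an adjusted p of 0.647. The strain means did not overlap in 4 of them, Col28a1, Col6a6, Col19a1 and Col10a1, which is 9.09% beside 3.92%. Of these 4, Col28a1, Col19a1 and Col10a1 had every strain mean at or below the 5.25 of Sry, the level of a probe set without its transcript. Col6a4, at 4.99 to 5.32, was near it. Col28a1 had means of 4.57 to 4.74 in the 3 strains and 4.78 to 5.10 in the 6. Across the 44 collagen genes 37 were lower in the increased class, 84.1% beside 65.8% of all named genes, with a median of -0.11 beside -0.04. The 44 genes were read on the same arrays and are not independent, so this count is not a test. Over the 25 collagen genes with a mean of 5 to 7, the median against the other 8 strains was -0.19 in C57BL/6J, -0.08 in DBA/2J (6 of 25 above) and -0.01 in A/J (9 of 25 above). In the 6 strains of the decreased class it ran from -0.07 in C57L/J to 0.17 in MRL/MpJ.

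Genes that modify, process, bind or accompany collagen were counted by the same F test. Over all named genes 28.9% passed it and 4.27% were called in a strain pair. Of 21 genes that modify and fold procollagen in the endoplasmic reticulum 10 passed, and 0 was called in a strain pair. Plod1, a lysyl hydroxylase, ran from 7.65 in C57BL/6J to 8.61 in 129S1/SvlmJ (adjusted p 1.22e-08). Serpinh1, the collagen chaperone HSP47, ran from 7.08 in A/J to 7.78 in C3H/HeJ (3.59e-04), where it was 7.85 and still called higher without replicate 2 (adjusted p 0.0315). Colgalt2, a collagen galactosyltransferase, ran from 6.62 in 129S1/SvlmJ to 7.42 in DBA/2J, and P3h1, a prolyl 3-hydroxylase, from 6.18 in A/J to 6.64 in KK/HlJ. Of 12 genes that trim and crosslink procollagen 8 passed. In A/J 5 of the 12 were called lower than the mean of the other 8 strains, beside 3.75% of all named genes, and 0 higher, beside 1.96%. Their median was -0.22, and 2 of 12 were above. Tll1, a procollagen C-proteinase, ran from 5.57 in A/J to 6.59 in KK/HlJ, and Lox, the lysyl oxidase that crosslinks fibrils, from 7.13 in C57BL/6J to 8.27 in 129S1/SvlmJ; both were called in 2 pairs. Loxl1 ran from 7.72 in A/J to 8.47 in DBA/2J, Loxl2 from 6.26 in 129S1/SvlmJ to 6.89 in C57BL/6J and Bmp1 from 8.07 in A/J to 8.50 in MRL/MpJ.

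Of 12 collagen receptors and uptake genes 9 passed. Itga2, the alpha2 integrin that binds collagen, was highest in KK/HlJ at 9.01 and lowest in 129S1/SvlmJ at 7.76, and was called in 2 pairs. Ctsk, the collagen-degrading protease cathepsin K, was highest in KK/HlJ at 8.18 and lowest in MRL/MpJ at 6.84, and was called in 10. Itga1 and Ddr2, both collagen receptors, were lowest in A/J at 9.94 and 8.36. Of 31 matrix genes that accompany collagen 19 passed, and 8 were called in a pair. Tnc, tenascin C, had the widest range, from 6.02 in A/J to 8.27 in DBA/2J. Lum, the fibril-binding lumican, was lowest in C57BL/6J at 5.92 and highest in KK/HlJ at 7.03, and Fmod, fibromodulin, from 5.39 in A/J to 6.44 in C3H/HeJ, called in 2 pairs but not by the F test (adjusted p 0.0668). Without C3H/HeJ replicate 2, Fmod was 5.84 in that strain, was called in 0 pairs and passed the F test (0.00266). Mfap2, Postn, Mfap4 and Aspn were all highest in BALB/cJ, at 9.69, 10.67, 11.95 and 8.41, and Thbs1 ran from 8.35 in A/J to 9.50 in C3H/HeJ, 9.64 without replicate 2. In C3H/HeJ 7 of the 31 were called higher and 0 lower, beside 4.18% and 3.08% of all named genes. Without replicate 2, the array rich in muscle and fat markers, 3 of these 7 were kept and 0 were lower, beside 2.06% and 1.52%. In A/J 1 was called higher and 3 lower, beside 1.96% and 3.75%.

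Of 18 genes of the TGF-beta pathway, whose ligand raises collagen transcription in fibroblasts, 13 passed and 2 were called in a pair. Ccn2, a TGF-beta target, ran from 8.80 in C57BL/6J to 9.997 in C57L/J, and Itgb6, part of the integrin that activates the latent ligand, from 7.85 in 129S1/SvlmJ to 8.88 in MRL/MpJ. Ltbp1, which stores the latent ligand in the matrix, ran from 7.997 in C57L/J to 8.59 in DBA/2J, and Itgav from 8.36 in C3H/HeJ to 8.74 in KK/HlJ. Without C3H/HeJ replicate 2, Itgav was 8.39 there and lowest in A/J. In C57BL/6J 2 of the 18 were called higher and 1 lower, beside 4.06% and 4.11% of all named genes. In MRL/MpJ 5 of the 18 were called higher and 1 lower, beside 6.83% and 5.61% of all named genes. Without replicate 3 they were 3 higher and 1 lower, beside 2.76% and 2.76%. In A/J 0 were called higher and 2 lower, beside 1.96% and 3.75%. The part of this pathway in the collagen levels was not tested.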

How the data were processed

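Per the labels' protocols, lung RNA was isolated with TRIzol, cleaned on RNeasy columns, converted to biotin-labelled DNA and hybridised to the arrays. The deposited table holds the authors' log2 signals per probe set, used here without further scaling. The submitters' processing notes name affy, without a version; how signals were normalized is not stated in the labels or files used here. Gene symbols came from the platform's probe table, which named 20239 of 21225 probe sets; 0 collagen symbols needed updating.

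Fits used R 4.3.3 and limma 3.58.1 (lmFit and eBayes) on all named genes, with 1 mean per strain over 27 arrays. Calls were made at a Benjamini-Hochberg adjusted p under 0.05, for strain pairs with a log2 difference of at least 1 as well. Adenoma classes were tested on 9 strain means. Correlations used Python 3.11.15 and SciPy 1.17.1, with exact permutation. Labels do not say more of the mice than their strain, sex and age, so p-values measure the spread between these samples, and the 3 arrays per strain limit the precision.

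All 44 collagen genes are counted. Values on every array are printed for genes called in a strain pair, their partner chains and 9 fixed lung collagens; other collagen genes are given by range. Of each other list the 4 genes with the smallest F p and any gene called in a pair were eligible. The collagen genes, lists and alternatives were chosen with earlier results of these data known. Samples with the same replicate number in different strains did not deviate together (median correlation 0.00, range -0.27 to 0.28), so the numbers were not taken as pairs. On simulated data with 200 of 20239 genes changed by 1, the F test recovered 189 with 12 false calls, the contrast of a strain with the other 8 195 with 13, severity 199 with 14 and frequency 199 with 11. The class simulations gave every gene the median spread between strains. They do not give the power for smaller differences, such as the -0.46 of Col8a1 for severity, or for genes with a wider spread. Alternatives were quantile normalization, centring of arrays, a filter on dim genes (16602 left), unnamed probe sets included, a robust prior with intensity trend, weights for arrays, a replicate block, the run number as covariate, other minimum differences, other units of replication, and leaving out each array or strain.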

Additional observations from a re-analysis of the deposited data

Results flagged for a closer look

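In each adenoma class of 4 to 10 strains, the strain mean farthest from its neighbour was compared with Dixon's critical value for outliers. Over the 44 collagen genes and both labels 88 groups were tested, of which chance flags about 1 in 20, or 4.4, and 2 were flagged. Both lie among the 6 strains labelled decreased in frequency. Col4a6 in BALB/cJ had a mean of 4.86, and the next strain of the class had 5.88. Col6a4 in KK/HlJ had a mean of 5.04, and the next strain had 5.26. A/J, the other strain with low Col4a6, is labelled increased in frequency.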

How the results depend on the processing

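Of the 20 collagen genes that passed the F test, the count was 15 to 21 under the other settings and 16 to 23 with 1 array left out. The count of collagen genes called in a strain pair was 1, and 2 with array weights (Col6a3 added), 14 with a minimum difference of 0.5 and 33 with no minimum; it was 1 to 2 with 1 array left out. The 48 calls of a strain against the other 8 became 15 with the run number as covariate, by construction a term close to the strain, stayed at 42 to 56 under the remaining settings and were 36 to 50 with 1 array left out. Of the 16 chain pairs 11 passed, and 9 to 12 with 1 array left out. For the adenoma classes 0 collagen genes were called by limma, also 0 with any 1 array left out; 3 had an unadjusted p under 0.05 for severity and 8 for frequency. Taking the arrays as independent called 2 for severity.

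With the replicate number as a block the counts were 21 for the F test, 1 for strain pairs, 46 for the strain calls and 11 for chain pairs, and 0 for both adenoma classes with the strain as a random block; for the F test Col4a2 was lost and Col9a1 and Col1a2 gained. Of the results for single genes and pairs, 92 were no longer past the threshold under another setting, 276 with an array left out and 3 with a strain left out. None of the called results changed direction. Among correlations that did not pass, Col5a1 with Col5a2 (r = 0.10) became -0.020 with median centring, -0.25 without A/J and -0.014 without MRL/MpJ, and -0.028 to 0.30 with 1 array left out; Col6a1 with Col6a3 (0.16) became -0.0012 with median centring and -0.014 without A/J. Signal near that of Y-linked genes limits what can be said of Col6a4, Col10a1, Col19a1 and Col28a1. The same holds for the lowest strains of Col4a6, Col6a5, Col9a1, Col11a1 and Col25a1, whose lowest means were also below the highest of Sry.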
